A study of Mus musculus with 12 samples.

Results

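To describe genes that rose or fell transiently in cerebellar cells sorted by an astrocyte reporter around the end of the first postnatal week, the 3 libraries from P7 were set against their neighbors in age, 3 libraries from P1 and 3 from P14. These are 9 of the 12 libraries sequenced. The other 3 libraries, from P28, entered the model for the spread between libraries and show where each gene went later. All mice were Aldh1l1-GFP reporters, in which the promoter of Aldh1l1, a folate enzyme of astrocytes, drives green fluorescent protein (GFP), and GFP-positive cells were sorted from dissociated cerebellum with no other treatment. The sort follows the reporter alone, and both sexes were used without the labels giving the sex of a library. The labels do not state that the 3 libraries of an age came from separate animals, so the p-values measure the spread between these libraries, which may be technical.

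The deposited values are normalized counts. For each gene, the mean of log2(normalized count + 1) was taken per age, and the contrast is the P7 mean minus the average of the P1 and P14 means, so that a contrast of 1 is about 2-fold for an abundant gene and understates the change of a low one. Of the genes in the table, 15464 reached 10 in 3 or more of the 12 libraries and were tested with limma. A gene was called at a Benjamini-Hochberg adjusted p under 0.05 over all genes tested and a contrast over 0.75 in either direction. A called gene could still be a step between P1 and P14. It was therefore named a peak or a dip only if the P7 mean also lay beyond each neighbor's mean by more than 0.75. All 3 measures share the P7 libraries.

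In the days around P7 the mouse cerebellum holds several dividing populations side by side. Granule neuron precursors multiply in the external granular layer under Sonic hedgehog (Shh) released by Purkinje cells, while progenitors in the prospective white matter give rise both to astrocytes and to Pax2-expressing GABAergic interneurons. Bergmann glia, velate astrocytes and fibrous astrocytes take on their mature shape and their transport functions in the weeks that follow.

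Reads counted on genes ranged from 6399499 to 11328604 at P7, from 11478899 to 14733985 at P1 and from 9470510 to 9856910 at P14. The shallowest library was P7 replicate 2. As a check of the label, Slc1a3, the astrocyte glutamate transporter GLAST, had normalized counts of 12679, 6854 and 11879 in the 3 P7 libraries, and Aldh1l1 itself 1985, 936 and 1488, so astrocyte markers were present in every P7 library and lowest in replicate 2. The RNA of the noncoding X-linked gene Xist stood at 14.4 to 28.9 in the P1 libraries, at 18254 to 22155 in those of P14 and at 24667, 90.3 and 25471 at P7, so the libraries of P1, and P7 replicate 2, differed in it from the rest of these 9. Between P1 and P14, the level of Xist and age cannot be told apart, and the part of Xist in the results was not tested. In bulk libraries, fewer cells of a type and less RNA per cell cannot be told apart, and this holds for every level that follows.

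At P7, 638 genes (4.13% of those tested) were called higher than the average of P1 and P14, and 847 (5.48%) were called lower. Of these, 358 were peaks (2.32%) and 464 were dips (3.00%). Among the genes called higher, 234 were no more than 0.75 above their P1 mean and 46 no more than 0.75 above their P14 mean, and among those called lower 295 and 88 were within that distance of P1 and P14. Apart from the test, all 3 P7 libraries lay above all 6 neighboring libraries for 1453 genes (9.40%) and below them for 1096 (7.09%). Of the peaks 326 were separated in this way, and of the dips 423. Peaks and dips were picked on these same values, so their separation follows largely from that choice and is no further support.

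The peaks were large and were followed by low levels, whereas the dips were shallower and were followed by high ones. The lower P14 level of peaks and the higher P14 level of dips are set by their definition, and the P28 levels are not. On the log2 scale, the median peak stood at 9.28 at P7, against 7.75 at P1, 6.88 at P14 and later 5.90 at P28. The median dip stood at 8.06 at P7, against 9.30, 9.59 and 10.01 at those ages. For 308 of the 358 peaks the P28 mean was below even the P1 mean, and for 367 of the 464 dips it was above it. The median of all genes tested was also lower at P28 (7.39) than at P1 (7.51). How many of all genes lay below or above their P1 mean by P28 was not counted, so these 2 counts have no background.

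**Figure D1:**
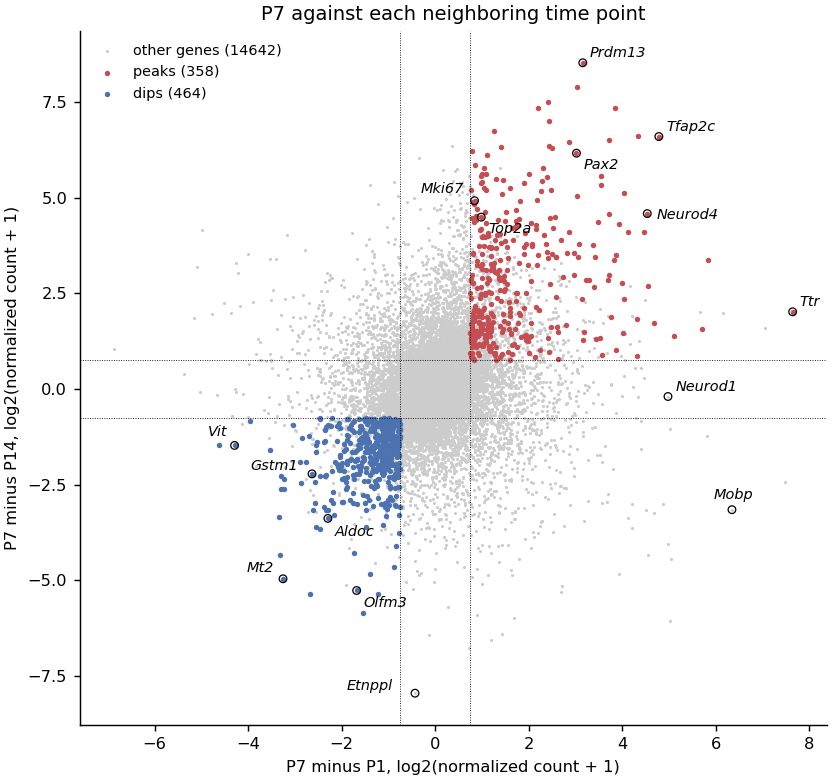
Each gene by its P7 minus P1 difference and its P7 minus P14 difference, both in log2(normalized count + 1), with peaks and dips colored. The 358 peaks lie in the corner where both differences exceed 0.75, and the 464 dips the opposite corner; the 2 axes share the P7 libraries, so the points are spread along the diagonal by construction.

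The scaling by the deposited size factors left the median contrast of all genes at 0.06, and scaling by library totals alone moved it to 0.21 and turned the split of 638 higher against 847 lower into 1001 against 626. Each P7 library weighed on the counts. Without P7 replicate 1, 2 or 3, genes called higher numbered 346, 352 and 317 and peaks 208, 214 and 189; without replicate 2, genes called lower numbered 559 and dips 292.

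The GABAergic interneuron lineage stood out among the peaks. Its list, like the others, was chosen with earlier results of these data known, so the counts are descriptions and no list was tested. Of the 34 genes listed for this lineage, 28 could be tested, and 21 were called higher at P7 (background 4.13%), 20 of them as peaks (background 2.32%), with 0 called lower. In 20 of the 28, all 3 P7 libraries lay above all 6 neighbors (background 9.40%). The median contrast was 3.66, against 0.06 over all genes, and 3.37 with ages at 0 set to the floor of 3 reads per library. Since 6 of the 28 passed the filter only through their P7 values, the count without them is given as well, with 16 of 22 called higher and 15 peaks. The 7 members not called include Pax8, a paired-box relative of Pax2, with a contrast of -2.42 (SE 0.80, adjusted p = 0.0664). With the 9 libraries alone, 2 members were called lower, Pax8 among them (limma adjusted p = 0.04). Without P28 replicate 1 or 2, 1 member was called lower, which in the first case was Pax8 (limma adjusted p = 0.0492).

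Transcription factors that specify this lineage led the peaks. Prdm13, which steers progenitors to a GABAergic fate, had normalized counts of 125, 2.14 and 180 at P1, 519, 200 and 487 at P7, and 0 in all 3 libraries at P14. Every P7 library was above every P1 library, with P1 replicate 2 far under the others of its age. With a floor of 3 reads in each P14 library, Prdm13 was at least 126-fold higher at P7 than at P14, and its fitted contrast, which depends on the pseudocount, was 5.85 (SE 1.06, adjusted p = 0.00226). Pax2, the defining factor of immature cerebellar interneurons, measured 217, 65.7 and 514 at P1, then 2059, 908 and 2154 at P7, and 24.4, 10.6 and 35.8 at P14. Its groups did not overlap, and its contrast was 4.60 (SE 0.82, adjusted p = 0.00198).

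The AP-2 factors Tfap2a, Tfap2b and Tfap2c, which act in GABAergic progenitors and their progeny, followed the same course. Tfap2c was close to absent outside P7, at 2.14 to 6.06 at P1 and 0 to 1.06 at P14 against 142, 58.9 and 221 at P7 (contrast 5.70, SE 0.69, adjusted p = 0.000113). Tfap2a and Tfap2b were more abundant, with P7 values of 1055 to 2256 and 1864 to 4575 and contrasts of 4.67 and 3.87. All 3 were peaks, and in none did a P7 library overlap a neighbor. Ptf1a, the bHLH factor at the head of the GABAergic lineage, and the proneural factor Neurog1 were at 0 in every P14 library and at least 25.8-fold and 27.3-fold higher at P7.

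Genes of the inhibitory transmitter itself also peaked. Gad1 and Gad2 encode the enzymes that make GABA, and Slc32a1 the transporter that loads GABA and glycine into vesicles. Gad2 measured 75.7, 103 and 342 at P1, 1042, 535 and 1044 at P7 and 149 to 168 at P14, with no overlap of P7 with either neighbor (contrast 2.49, SE 0.43, adjusted p = 0.00149). Gad1 and Slc32a1 had contrasts of 2.61 and 3.01 and lost their call without P7 replicate 1 or 3, at adjusted p-values of 0.0502 to 0.0615. Slc6a5, the neuronal glycine transporter GlyT2, was a peak, at 40.6, 1.43 and 43.2 at P1, 329, 137 and 291 at P7 and 0 to 2.12 at P14 (contrast 5.60, SE 1.05, adjusted p = 0.00288).

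Of the 12 peaks with the largest contrasts among those without overlap and with at least 10 CPM (recovered reads scaled to a common library total) at their highest age, 8 are on the interneuron list. Among these 8, Prdm13, Tfap2c and Slc6a5 did not pass the filter through P1 and P14 alone. Besides those above, the 8 include the LIM-homeodomain factor Lhx5 (414 to 821 at P7, 0 to 21.2 at P14, contrast 4.96), the transcriptional corepressor Skor1 (4.59) and the proneural factor Neurod4 (4.56). Nhlh1, a bHLH factor of newly formed neurons outside these 12, was a peak at 3.93. The remaining 4 are Fermt1, an adaptor that activates integrins (5.48), Crabp1, which binds retinoic acid (4.72, at least 42.1-fold over P14), and the noncoding genes Gm14204 (5.46) and 1700039E22Rik (5.11). The last overlaps Pax2 on the opposite strand. Whether strand was used in counting is not stated, so its reads and those of Pax2 cannot be told apart. Gm14204 lies at chromosome 2, 158595472 to 158610723 on the minus strand of GRCm38, next to Slc32a1 without overlapping it. All 12 kept their call when any single library was left out.

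Levels of the lineage differed between libraries of an age as well. Its summed normalized counts were 12000 to 23300 at P7, compared with 5370 to 11800 at P1 before and with 1400 to 2120 at P14 and then 1300 to 1780 at P28 after. The lowest P7 library, replicate 2, was thus only just above the highest P1 library. With any one library left out, 17 to 21 members were called higher and 16 to 21 were peaks. If 10 or more reads were asked of each library, which leaves out members that are near 0 at P14, 4 were called higher.

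**Figure D2:**
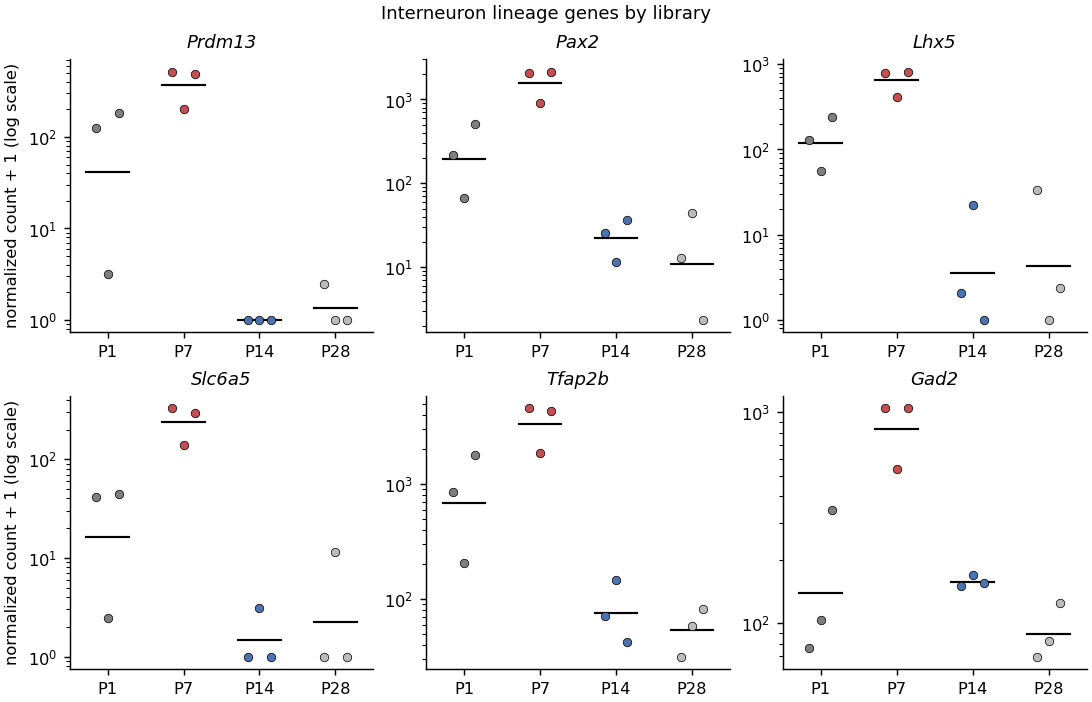
Normalized counts of genes of the GABAergic interneuron lineage in each of the 12 libraries (points, log scale; 3 libraries per age) with the group mean on the log scale as a line; 1 is added to every value. The P7 libraries lie above all others in each panel, and P7 replicate 2 is the lowest of its age.

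Genes of mitosis formed another large group of peaks. Of 53 listed genes, all tested, 36 were called higher (4.13% over all genes), 20 as peaks (2.32%), and 1 was called lower (5.48%), with a median contrast of 2.43. In 40 of the 53 every P7 library lay above every neighbor (background 9.40%). The shape was uneven: the median difference was 0.77 against P1 and 4.27 against P14, so most of the contrast came from the P14 side. Summed levels were 46500 to 59700 at P7, against 22000 to 36300 at P1, and were lower afterwards, with 5110 to 7450 at P14 and then 2620 to 3370 at P28.

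Mki67, the proliferation antigen Ki-67, measured 8296, 3951 and 7866 at P1, 9915, 13819 and 10897 at P7 and 579, 307 and 296 at P14 (contrast 2.89, SE 0.34, adjusted p = 8.79e-05). Top2a, the topoisomerase that disentangles chromosomes before they part, measured 3880, 2733 and 4223, then 6292, 8052 and 6891, then 402, 306 and 244 (contrast 2.74, SE 0.22, adjusted p = 1.16e-05). P7 replicate 2, lowest for interneuron genes, was the highest of the 3 for both genes, and P1 replicate 2 was the lowest library of its age. Kif2c, a kinesin that depolymerizes microtubules at the centromere, and Ccnb2, a mitotic cyclin, were peaks at contrasts of 3.50 and 3.36. Birc5, a subunit of the chromosomal passenger complex, had the same contrast of 3.36 with only 0.36 of it against P1, and was not a peak. The gene called lower was Pttg1, the securin that holds back separase, at 213, 362 and 223 at P1, 147, 106 and 84.5 at P7 and 201 to 225 at P14 (contrast -1.09, SE 0.33, adjusted p = 0.0434). It is named as the exception of its list, and its call was lost on leaving out any of the 9 libraries of P1, P7 and P14, with edgeR and with scaling by library totals.

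The promoters of many mitotic genes carry a pair of short elements known to tie their transcription to the cell cycle, the CHR (cell cycle genes homology region, TTTGAA) and the CCAAT box (CCAAT). They are shown for 3 peaks of this list named above, since they move together. The sequences are the 150 bases before the RefSeq start on GRCm38.p6, each on the minus strand of the chromosome and written 5′ to 3′ along the gene. Capitals mark either motif on either strand, where the reverse complements read TTCAAA and ATTGG, and no marked motifs overlap. The windows are chr7:135716380-135716529 for Mki67, chr11:99024190-99024339 for Top2a, and chr9:70421555-70421704 for Ccnb2.
Mki67: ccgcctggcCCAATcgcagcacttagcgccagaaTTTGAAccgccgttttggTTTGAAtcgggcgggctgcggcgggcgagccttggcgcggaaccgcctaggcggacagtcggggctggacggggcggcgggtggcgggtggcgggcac
Top2a: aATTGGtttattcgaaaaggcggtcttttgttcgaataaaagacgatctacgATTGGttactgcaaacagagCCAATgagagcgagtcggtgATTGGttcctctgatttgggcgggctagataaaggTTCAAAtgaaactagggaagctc
Ccnb2: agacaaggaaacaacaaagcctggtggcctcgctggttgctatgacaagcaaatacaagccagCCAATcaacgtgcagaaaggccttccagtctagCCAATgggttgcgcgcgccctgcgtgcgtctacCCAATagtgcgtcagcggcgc
Mki67 has 2 CHR matches and 1 CCAAT box, Top2a 1 and 4, and Ccnb2 0 and 3. These 3 windows end at or just before the start of the gene's annotation, whereas some starts of the table, such as that of Kif2c, lie inside the gene, so the shares that follow are over the table's starts as given. Over the 46 windows of the 44 mitosis genes found in the RefSeq table, 32.6% held a CHR match and 67.4% a CCAAT box, against 5.54% and 26.2% of the 14726 windows of genes tested and 9.07% and 24.5% of all 32851 windows of this length. Over all peaks of the comparison, 10.2% of windows held a CHR match and 28.4% a CCAAT box, and over all dips 4.74% and 23.9%. A match is a description of letters and says nothing of binding.

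DNA replication genes moved less than mitosis genes. Of 42 genes, 14 were called higher (4.13% over all genes) and 0 lower (5.48%), only 3 of them as peaks (2.32%), with a median contrast of 1.42, made of 0.43 against P1 and 2.45 against P14. The 3 peaks were Tyms, the thymidylate synthase (contrast 2.07, SE 0.42, adjusted p = 0.00464), Dut, which removes dUTP (1.99), and Pola1, the catalytic subunit of the primase-polymerase (1.31). Dtl, which directs the degradation of the licensing factor Cdt1, was called higher at 2.65 without being a peak, at 415, 214 and 334 at P1, 499, 440 and 432 at P7 and 7.60 to 41.3 at P14. Pcna, the sliding clamp, was called higher through its low P14 level, at 1938, 1419 and 1561 at P1, 2073, 1858 and 1851 at P7 and 607 to 984 at P14 (contrast 0.78, SE 0.19, adjusted p = 0.0143).

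The cell cycle calls rested on single libraries more than the interneuron calls did. Mitosis genes called higher fell to 18, 16 and 18 without P7 replicate 1, 2 or 3, and mitosis peaks fell to 13, 7 and 12 and, without P1 replicate 2, to 4. Replication genes called higher fell to 9 and 7 without P1 replicate 1 or 2, fell to 4, 4 and 5 without P7 replicate 1, 2 or 3, and numbered 22 without P28 replicate 1. With a pseudocount of 0.1 in place of 1, 18 mitosis genes were called higher and 10 were peaks, and with at least 10 reads asked of each library 5 and 3. DESeq2 called 24 replication genes higher and the fit of the 9 libraries alone 34. The calls of Pcna, Dut and Pola1 were among those lost when a library was left out. Those of Mki67, Top2a, Kif2c, Ccnb2, Birc5, Dtl and Tyms held with any library left out, but Ccnb2 and Birc5 lost theirs at a pseudocount of 0.1 (limma adjusted p = 0.0655 and 0.0663).

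**Figure D3:**
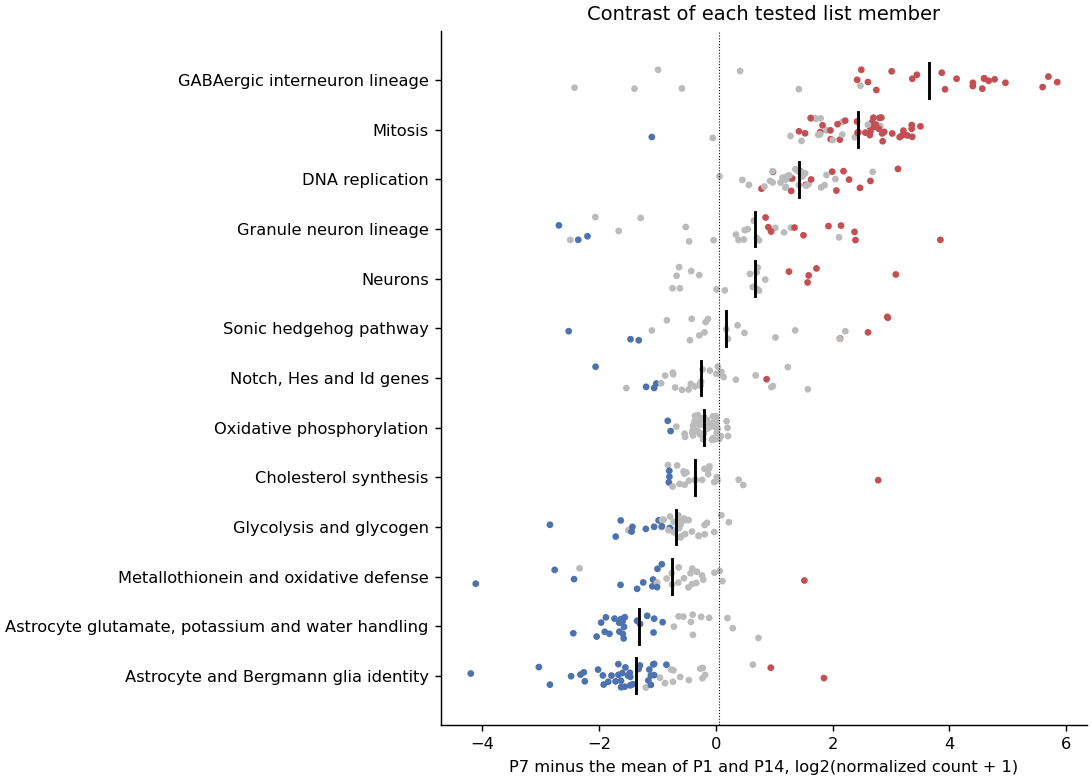
Contrast of P7 against the average of P1 and P14, in log2(normalized count + 1), for every tested member of each gene list (points), with the list median as a bar, members called higher in red and called lower in blue, and the median of all genes as a dotted line. Interneuron, mitosis and replication genes lie mostly above 0, and astrocyte lists mostly below.

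Targets and parts of the Shh pathway did not move as a block. Of 23 genes, 4 were called higher (4.13% over all genes), 3 as peaks (2.32%), and 3 lower (5.48%), 2 as dips (3.00%), and the median contrast of 0.18 changed sign under other settings, for example to -0.15 with edgeR on recovered reads. Ccnd2, the cyclin that Shh drives in granule precursors, measured 2618, 1849 and 3248 at P1, 5343, 4759 and 6482 at P7 and 220 to 552 at P14 (contrast 2.61, SE 0.33, adjusted p = 0.000180). Mycn, the other growth-promoting target, peaked at 2.94, and Sufu, which restrains the Gli factors, peaked at 2.13. Scube2, which helps release the ligand, was called higher at 2.95, with only 0.17 against P1.

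The receptor side went the other way. Ptch1, the Shh receptor and itself a target of the pathway, measured 4126, 2424 and 3149 at P1, 1574, 1239 and 1497 at P7 and 4203, 4741 and 3270 at P14, with no overlap of P7 with either neighbor (contrast -1.32, SE 0.17, adjusted p = 0.000180). The coreceptor Gas1 was a dip as well (-1.46). Gli1, the target most often used as a readout, had a contrast of -1.09 and narrowly did not pass (SE 0.35, adjusted p = 0.0545). It passed in the same direction with edgeR (adjusted p = 0.0415), DESeq2 (0.00667), a pseudocount of 10, at least 10 reads in each library and the 9 libraries alone, and without P1 replicate 2, P14 replicate 3 or P28 replicate 3. Shh, the ligand, was seen with 24.0, 14.3 and 20.4 normalized counts at P1 and with 0 reads in all P7 libraries, so it was at least 6.80-fold lower at P7 than at P1 with a floor of 3 reads per library, and at P14 it was at 0 to 1.09. Of these calls, those of Mycn, Scube2 and Shh were lost without P7 replicate 1 and likewise without replicate 3, and 2 genes of the list were then called higher. Without P7 replicate 2, Mycn and Shh lost theirs too, as did Mycn without P1 replicate 2. Shh was not called with edgeR (adjusted p = 0.0753), and DESeq2 gave it no adjusted p, while Scube2 was lost at a pseudocount of 0.1 (limma adjusted p = 0.0662).

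Granule neuron genes showed a mixed picture. Of 32 genes tested, 10 were called higher (4.13% over all genes), 4 of them as peaks (2.32%), and 3 lower (5.48%), 1 of them as a dip (3.00%). The share of dips was near that of all genes. The remaining 19 were not called, and the median contrast was 0.68. Since 2 of the 32, Atoh1 among them, passed the filter only through their P7 values, the count without them is 9 called higher and 3 peaks. Atoh1, the factor of granule precursors, measured 16.0, 0 and 15.9 at P1, 30.3, 34.0 and 45.0 at P7 and 0 at P14, at least 11.4-fold above P14, and was a peak. Neurod2, expressed in differentiating granule neurons, was a peak at 2.38, as were the matrix gene Mfap4 at 1.50 and Nfix, a nuclear factor I gene, at 1.35. Neurod1, which follows Atoh1, was called higher but was no peak, at 59.1, 26.4 and 126 at P1, 1413, 2519 and 1853 at P7 and 1442, 2102 and 3272 at P14. Cbln3, a secreted organizer partner of granule cell synapses, was at 14.2 to 20.4 at P1, 31.0 to 49.4 at P7 and 2622 to 6357 at P14, which made it lower by the contrast (-2.68) without being a dip. The dip was Etv1, an ETS factor of maturing granule neurons (-2.20). Without P7 replicate 3, granule genes called higher fell to 4, peaks fell to 1, and Atoh1, Neurod2 and Mfap4 lost their calls. Neurod2 also lost its call without P7 replicate 1 and Mfap4 without P7 replicate 2, and without P1 replicate 1 the number called lower was 5. DESeq2 called 6 members lower and a pseudocount of 10 gave 8.

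Of 20 general neuronal markers, 5 were called higher (4.13% over all genes), 4 as peaks (2.32%), and 0 lower (5.48%). Dcx, a microtubule-binding protein of migrating immature neurons, measured 1187, 901 and 2784 at P1, 8070, 5986 and 8423 at P7 and 441 to 636 at P14 (contrast 3.08, SE 0.46, adjusted p = 0.000589). The other 3 peaks were Elavl4, a neuronal RNA-binding protein (1.72), Tubb3, neuronal tubulin (1.59), and Ina, an intermediate filament of young axons (1.57). Synaptic Snap25 took another course, at 539 to 1036, 2033 to 2771 and 15942 to 30596 at P1, P7 and P14, and was not called. The summed level of the list was 13800 to 27800 at P1, 37700 to 44700 at P7 and 40000 to 63800 at P14. Neuronal RNA was thus present in the sorted libraries at both P7 and P14, in ranges that overlap, and its part in the peaks of interneuron and granule genes was not tested. Without P1 replicate 3, 9 members were called higher, while Tubb3 lost its call without P14 replicate 2 or any 1 of the P7 libraries (limma adjusted p = 0.0559 to 0.122).

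Against these peaks, genes of astrocyte function dipped. Of 32 genes of glutamate, potassium and water handling, 21 were called lower at P7 (background 5.48%), 15 as dips (background 3.00%), and 0 higher. In 20 of the 32 all P7 libraries lay below all neighbors (background 7.09%), and the median contrast was -1.32. Hepacam, the adhesion protein GlialCAM that anchors chloride and gap junction channels in astrocytes, measured 8577, 8346 and 8206 at P1, 2472, 1102 and 2268 at P7 and 10727, 14089 and 10914 at P14 (contrast -2.44, SE 0.21, adjusted p = 1.67e-05). Every P7 value was under the lowest neighbor, with replicate 2 lowest.

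Several transporters and enzymes of astrocytes dipped too. Atp1b2, a beta subunit of the sodium-potassium pump in astrocytes, dipped at -1.96, as did Slc6a9, the glial glycine transporter GlyT1 (-2.04), Glul, glutamine synthetase (-1.82), and Gja1, the gap junction protein connexin 43 (-1.65). For Glul the values were 6089, 8940 and 5735 at P1, 3069, 2069 and 2267 at P7 and 9779 to 12407 at P14. The pair of glutamate transporters met the contrast but narrowly missed the shape of a dip. Slc1a3 was at 13205 to 20875 at P1, 6854 to 12679 at P7 and 50270 to 72149 at P14 (contrast -1.62, with -0.70 against P1), and Slc1a2 (GLT-1) had a contrast of -1.60 with -0.75 against P1. With any library left out, 20 to 21 members were called lower, but without P7 replicate 2 only 6 were dips.

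Of 50 tested genes of astrocyte and Bergmann glia identity, 35 were called lower (5.48% over all genes) and 2 higher (4.13%), with 20 dips (3.00%) and 1 peak (2.32%) and a median contrast of -1.37. Aldoc, the aldolase isoform of astrocytes, was among the clearest, at 10561, 10071 and 7823 at P1, 2762, 1171 and 2184 at P7 and 19622, 21436 and 19172 at P14 (contrast -2.84, SE 0.22, adjusted p = 8.93e-06). Ndrg2, a cytoplasmic protein enriched in astrocytes, dipped at -2.48 and Sox9, the gliogenic transcription factor, at -1.15. Fgfr3, the growth factor receptor of astrocytes and their progenitors, measured 4043, 2394 and 2258 at P1, 854, 386 and 485 at P7 and 2186 to 2872 at P14 (contrast -2.32). The summed level of the list was 135000 to 207000 at P7, against 346000 to 407000 at P1, 437000 to 539000 at P14 and, later, 859000 to 1030000 at P28, so P7 was the lowest age with no overlap.

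The members that were called without dipping show how the contrast mixes shapes. Aldh1l1, whose promoter drives the reporter, was at 6441, 4741 and 3841 at P1, 1985, 936 and 1488 at P7 and 1834, 1978 and 1824 at P14. Its contrast was -1.11 (SE 0.21, adjusted p = 0.00334), with -1.80 against P1 and -0.42 against P14, and its P7 and P14 libraries overlapped. Etnppl and Dao, a phospholyase and the D-amino acid oxidase of mature astrocytes, were near the floor at both P1 and P7 and reached 480 to 1077 and 479 to 745 at P14, so their contrasts of -4.19 and -3.03 come from high P14 levels. Gfap, the glial intermediate filament, was not called: it measured 789, 844 and 360 at P1, 1773, 1119 and 1439 at P7 and 1078 to 1538 at P14 (contrast 0.64, SE 0.26, adjusted p = 0.142), and passed only with scaling by library totals (0.79, adjusted p = 0.0491).

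Both members called higher were nuclear factor I genes, which drive the onset of gliogenesis and also act in granule neurons. Nfib measured 10227, 6935 and 11986 at P1, 26466, 22490 and 27119 at P7 and 5027, 5145 and 5333 at P14 and was the peak of the list (contrast 1.85, SE 0.15, adjusted p = 1.16e-05). Nfia was called higher at 0.94 without being a peak. Both kept their call with any library left out, as did their relative Nfix.

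**Figure D4:**
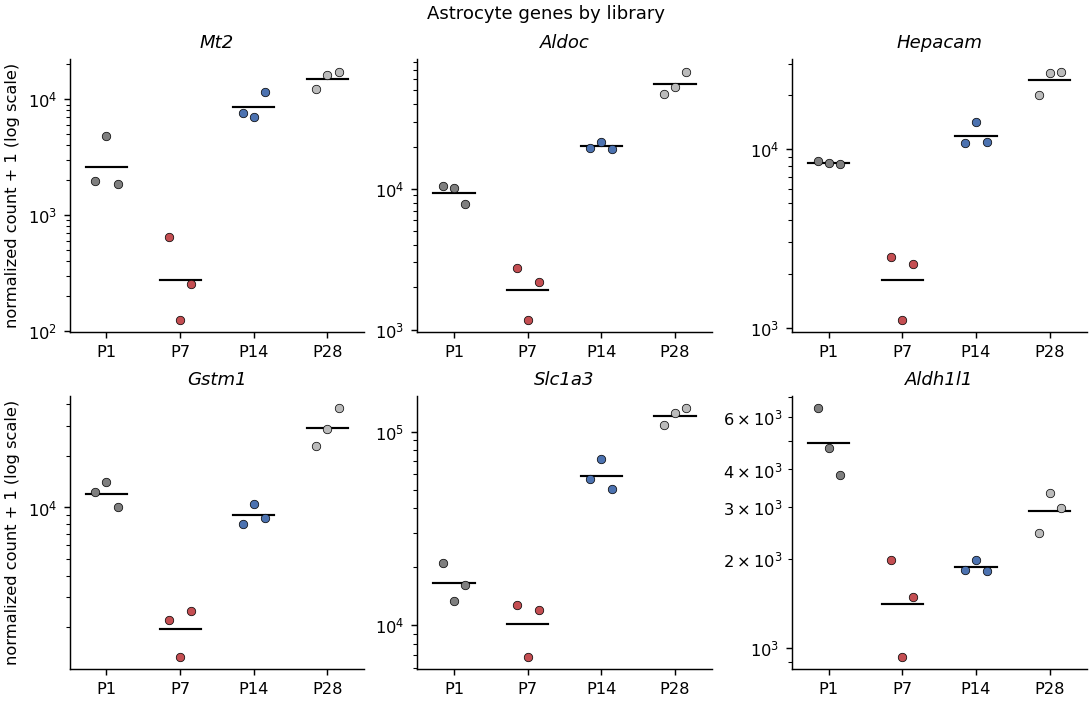
Normalized counts of genes of astrocyte identity and function in each of the 12 libraries (points, log scale; 3 libraries per age) with the group mean on the log scale as a line; 1 is added to every value. The P7 libraries lie below all P1 and P14 libraries except in Aldh1l1, where P7 and P14 overlap, and P7 replicate 2 is lowest in each panel.

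Among dips without overlap and with at least 10 CPM at their highest age, the largest contrast was that of Mt2, a metallothionein that binds zinc and copper. It measured 1961, 4848 and 1846 at P1, 645, 123 and 253 at P7 and 7569, 7046 and 11599 at P14 (contrast -4.11, SE 0.41, adjusted p = 3.11e-05). Its relative Mt1 was at 994, 2204 and 1013, then 389, 169 and 256, then 1826, 2385 and 2854 (contrast -2.76). Gstm1, a glutathione transferase abundant in astrocytes, dipped at -2.43. Of 31 metallothionein and oxidative defense genes, 11 were called lower (5.48% over all genes), 5 as dips (3.00%), and 1 higher (4.13%). That gene was the peak Txnrd1, the cytosolic thioredoxin reductase (1.52). Without P7 replicate 3, 6 members were called lower, without P1 replicate 3, 8 were dips, and without P1 replicate 2 Txnrd1 was no peak.

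The other dips of largest contrast share no list. Among them are Otof, a calcium sensor of vesicle fusion (-3.84), Faim2, an inhibitor of Fas-mediated death (-3.70), the secreted glycoprotein Olfm3 (-3.47), Cyp2j9, a cytochrome P450 (-3.07), Hif3a, a regulatory subunit of the hypoxia-inducible factors (-2.95), and Vit, the matrix protein vitrin (-2.88). Olfm3 was at 51.7 to 125 at P1, 14.7 to 36.6 at P7 and 743 to 1148 at P14, so its P14 level was far the higher of its neighbors. Vit had the opposite profile, at 493 to 1130 at P1, 20.9 to 52.5 at P7 and 73.1 to 180 at P14. Hif3a was more even, at 660 to 2339, 73.3 to 389 and 713 to 1122. Cml5 (-3.11), Smco3 (-3.02) and Lix1 (-2.89) belong to the same 12, as do Rit2 (-3.08), a small GTPase of neurons, and Shisa3 (-3.05), an antagonist of Wnt and FGF receptor transport, whose calls were lost without P7 replicate 3. Shisa3 also lost its call without P1 replicate 2 or either other P7 library.

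Metabolic lists shifted less. Of 38 glycolysis and glycogen genes, 10 were called lower (5.48% over all genes), 4 as dips (3.00%), and 0 higher (4.13%), with a median contrast of -0.68. Besides Aldoc, Pdk2, a kinase that switches off pyruvate dehydrogenase, dipped, at 786 to 1071 at P1, 438, 438 and 617 at P7 and 2122 to 3131 at P14 (contrast -1.63, SE 0.20, adjusted p = 0.000145). Without P7 replicate 1, 2 or 3, the list had 6, 5 and 6 genes called lower. Of 25 cholesterol synthesis genes 3 were called lower and 1 higher, and of 48 genes of oxidative phosphorylation 2 were called lower, shares that stand against 5.48% lower over all genes. Their median contrasts were -0.35 and -0.20, and with single libraries left out 0 to 4 and 0 to 2 of these genes were called lower.

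Notch signaling and its Hes and Id targets, which hold progenitors in an undifferentiated state, had 4 of 31 genes called lower (5.48% over all genes) and 1 higher (4.13%), with a median contrast of -0.26. Lfng, the glycosyltransferase that tunes Notch for its ligands, was the only dip, at 2086, 2628 and 2428 at P1, 821, 325 and 651 at P7 and 2272, 2846 and 1830 at P14 (contrast -2.06, SE 0.25, adjusted p = 0.000106). Notch1 was lower by the contrast (-1.19) through its high P1 values of 3530 to 6568, with 1165 to 1269 at P7 and 1492 to 1798 at P14. Id4 (-1.05) and Notch3 (-1.02) were the others called lower, and both lost their call without P7 replicate 2, leaving 2 of 31, a share near that of all genes. The gene called higher was Rbpj, the DNA-binding partner of Notch (0.87), which lost its call without P7 replicate 1 or 3.

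Lists for other cells that the sort could hold were examined for the same contrast. Over all genes, 4.13% were called higher and 5.48% lower. Among 18 oligodendrocyte precursor genes 2 were called higher and 2 lower, with Olig1, a factor of the oligodendrocyte lineage, as a dip at 1542 to 2446, 240 to 444 and 1502 to 1874 (contrast -2.37). The 2 called higher were no peaks, and the highest contrast of the list was 1.98. The summed level of the list was 24100 to 25600 at P1, 20400 to 26300 at P7 and 21800 to 22000 at P14. With edgeR, with scaling by library totals or without any one P7 library, 1 precursor gene was called lower. Myelin genes formed a slope through P7, with a summed level of 2730 to 4420 at P1, 27400 to 40300 at P7 and 399000 to 437000 at P14. Among 20 of them 7 were called lower, 1 higher and 0 were peaks or dips, and 2 to 4 were called lower without any one of P1 replicate 1 or 2, P14 replicate 1 or 2 or a P7 library. Of 15 Purkinje cell genes, 2 were called lower, and none without P1 replicate 3 or P7 replicate 3. Among 30 immediate early and dissociation genes, which respond to handling, 1 was called higher and 1 lower, shares near those of all genes, with a median contrast of -0.18. The first was the peak Ier5, an immediate early gene, at 72.6 to 101 at P1, 299 to 355 at P7 and 94.5 to 170 at P14 (contrast 1.67). Of 20 genes of endothelium and pericytes, 1 was called lower, a share near that of all genes, and 0 were called among those tested for ependyma (18), microglia (20), meninges (15) and red blood cells (1), or among 5 sex-linked genes. For the sex-linked genes the median difference was -4.99 against P1 and 3.04 against P14. The contrast averages these opposite differences, so 0 calls do not mean equal levels. The globins were at 0 in all 12 libraries.

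Choroid plexus genes were an exception that varied by library. Of 20 genes, 2 were called higher (4.13% over all genes), both as peaks (2.32%), and the median contrast was 2.33. Ttr, the transthyretin secreted by choroid plexus, measured 685, 289 and 221 at P1, 60055, 125927 and 47082 at P7 and 107436, 62320 and 796 at P14. P7 and P14 overlapped, and without P14 replicate 3 no gene of the list was a peak. Its contrast of 4.83 (SE 1.17, adjusted p = 0.0141) lost its call without P7 replicate 2, at an adjusted p of 0.0736, and 0 genes of the list were then called, while 6 were called without P28 replicate 3. The other peak was Clic6, a chloride channel protein of this epithelium (2.44), whose call was lost without P1 replicate 1 or 3, P14 replicate 2 or any 1 of the P7 libraries, at a pseudocount of 0.1 and with no filter. With edgeR and with DESeq2, 4 members were called higher and 0 were peaks. The summed level of the list was 59000 to 149000 at P7, highest in replicate 2, the library lowest in interneuron and astrocyte genes. Its part in those results was not tested.

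**Figure D5:**
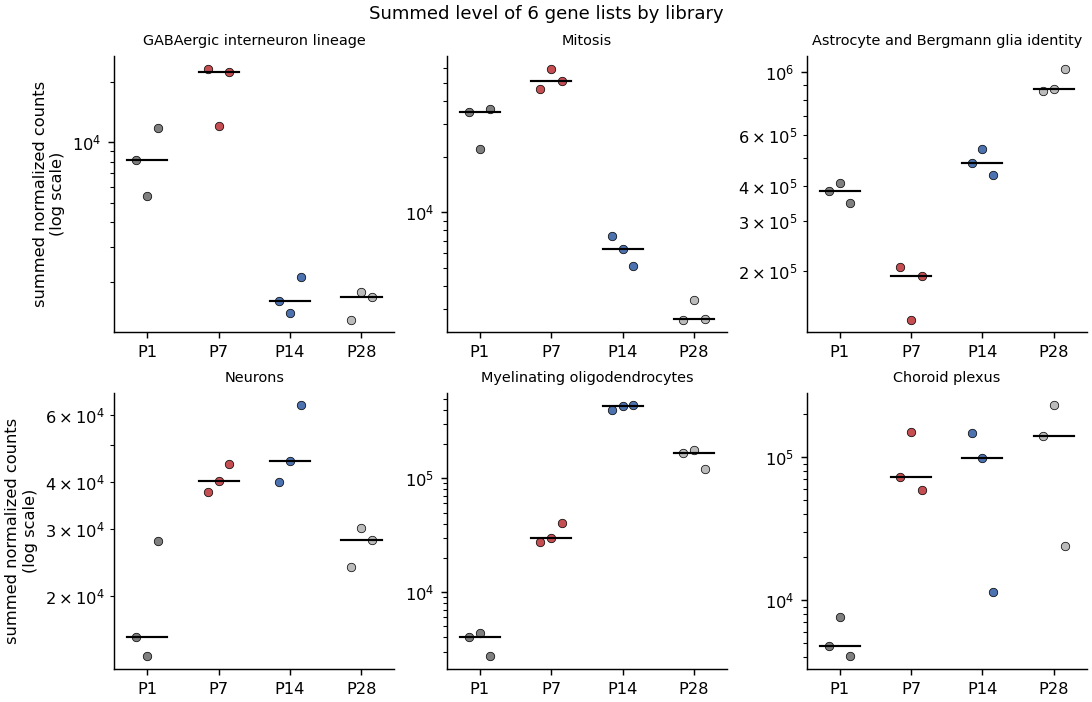
Summed normalized counts of gene lists in each of the 12 libraries (points, log scale; 3 libraries per age, median as a line). Interneuron and mitosis genes are highest in the P7 libraries, astrocyte identity genes are lowest there, neuronal sums at P7 and P14 overlap, myelin sums are highest at P14, and choroid plexus sums range from 11300 to 148000 at P14.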

How the data were processed

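RNA of GFP-sorted cerebellar cells was sequenced in 3 libraries per age. Per the study's methods and processing notes, the authors aligned reads to mm10 with STAR (2.5.0a), counted them with GenomicAlignments on UCSC iGenomes transcripts, and normalized them with DESeq2 (1.30.1 in the processing notes). Strand use and the treatment of shared reads are not given in the sources used here. The deposited values are a signal, namely each library's counts divided by its size factor. Dividing by each library's smallest step gave whole reads for 100% of values (tolerance 0.001), used for depth, floors and count tests. All 12 column names carry P28, so columns were matched through the labels, and 0 were unused. Of 24421 entries, 27 symbols had become dates.

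limma (3.58.1, R 4.3.3) was fitted with a variance trend to all 12 libraries on log2(value + 1). On simulated counts in which 200 genes differed at P7 by 2 on the log2 scale, it recovered 122 at the adjusted threshold and called 4 unchanged ones over 15403 genes. On the same simulation edgeR (4.0.16) recovered 136 with 3 unchanged calls over 15323 genes, and DESeq2 (1.42.0) 148 with 28. There each gene had the same mean at P1, P14 and P28, unlike in the data, so these rates need not hold for the data. The library pairs of an age differed beyond counting noise. Alternatives were edgeR and DESeq2 on recovered reads, other scalings, pseudocounts and filters, the 9 libraries alone, a replicate block, other thresholds and shapes, and each library left out.

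The members and gene lists were chosen with earlier results of these data known, so list counts are descriptions and no list was tested. Named genes were the 12 peaks and 12 dips of largest contrast without overlap and with at least 10 CPM at their highest age, each list's 2 most abundant members and up to 3 called members of largest contrast, and Aldh1l1 and Gfap. The following were chosen after their values were seen: Pttg1, Nfib, Nfia, Txnrd1, Rbpj, Sufu, Gas1, Shh, Gli1, Mfap4, Neurod2, Nhlh1, Etv1, Ptf1a, Neurog1, Gad1, Gad2, Slc32a1, Pax8, Pola1, Dut, Tyms, Slc1a2, Glul, Gja1, Sox9, Ndrg2, Fgfr3, Ina and the genes of the closing observations. Promoters came from RefSeq on GRCm38.p6, gene positions from GENCODE on GRCm38. A gene with no read can hold up to 3 reads at 95% confidence, for counting error only. A few single genes were left out of the text.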

Additional observations from a re-analysis of the deposited data

How the results depend on the processing

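With scaling by library totals alone, 1001 genes were called higher, and peaks numbered 517 and dips 326 against 358 and 464. With at least 10 reads in every library, 236 peaks were left among 10911 genes. With only the 9 libraries of P1, P7 and P14, 1144 genes were called higher and 562 were peaks, all of the 358 among them. At an unadjusted p, 1196 genes were higher, 1309 lower and 607 peaks. Counting any distance beyond both neighbors gave 621 peaks and 781 dips, and asking for an adjusted p against each neighbor gave 134 peaks. With single libraries left out, genes called higher ranged from 317 to 832, genes called lower from 559 to 993, peaks from 189 to 442 and dips from 292 to 527. edgeR on recovered reads gave 354 peaks and 448 dips, of which 322 and 427 were shared with limma, and DESeq2 gave 392 and 586. The contrasts of the genes named kept their direction under every setting run. Under the other settings these counts stayed within 1.5 times. With the replicate block, 353 peaks and 457 dips were called. Same-numbered libraries of different ages correlated at -0.03 to 0.14 in their deviations and different-numbered ones at -0.11 to 0.05. In 13 of 18 cases a library correlated best with its own number at another age, a hint of pairing from the data alone. These cases can count a pair of libraries from each side, so they are not independent. The labels give no shared batch, and only the correlation of P1 replicate 2 with P7 replicate 2 passed 0.1 (0.139). The numbers were therefore not taken to pair the libraries. The depth limits genes with few reads: 17 peaks had a neighbor at 0 in all its libraries, and 47 were tested only through their P7 libraries.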

Other observations

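The groups in these paragraphs were picked after their values were seen and are given as values only. Over all genes tested, 4.13% were called higher and 5.48% lower, with 2.32% peaks and 3.00% dips. Clustered histone genes, which are transcribed in S phase and whose RNAs mostly lack a poly(A) tail, were higher at P7. Of the 68 listed, 56 were tested, and 30 were called higher and 0 lower, 27 of them as peaks, with a median contrast of 1.69. Of the 56, 2 passed the filter only through their P7 values, and the counts were not repeated without them. Their summed normalized counts were 13401, 13153 and 12921 at P1, 24971, 25559 and 32721 at P7 and 7443, 4942 and 8121 at P14. Many are near-identical copies, and how reads were split between them is not stated, so single members are uncertain.

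Several receptors and effectors of fibroblast growth factor (FGF) signaling dipped with Fgfr3. Of 13 FGF receptors, ETS factors and Sprouty genes, 7 were called lower, 6 as dips, and 0 higher. Etv5, an ETS factor induced by FGF, measured 2516, 1850 and 2095 at P1, 668, 467 and 771 at P7 and 2048, 1935 and 1881 at P14 (limma contrast -1.71, SE 0.17, adjusted p = 3.05e-05), and its P7 libraries overlapped neither neighbor. Fgfr1 dipped at -1.15.

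Among 6 netrin receptors, which guide axons and migrating neurons, Dcc and Unc5c were peaks, Unc5d was called lower, and the median contrast was 0.13. Dcc measured 1812, 549 and 2910 at P1, 9105, 5492 and 8275 at P7 and 106 to 211 at P14 (contrast 3.97), and Unc5c 316 to 1735, 4551 to 6273 and 615 to 876 (contrast 2.83). Sox11, a factor of young neurons, was a peak at 3.56, at 1386 to 3692, 8106 to 12478 and 296 to 416. P1 replicate 2 was lowest of its age for all 3 genes.

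Enzymes of the aldehyde dehydrogenase family to which Aldh1l1 belongs moved in both directions. Of 16 tested, 8 were called lower, 5 as dips, and 2 higher, 1 as a peak. Aldh2, Aldh5a1 and Aldh7a1 dipped at -1.41, -1.27 and -1.22. All 3 stearoyl-CoA desaturases tested, which make monounsaturated fatty acids, were dips, with Scd2 at 11042 to 16249, 3939 to 6327 and 12957 to 17656 (contrast -1.43).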
